A study of Mus musculus with 76 samples.

Results

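The genes described here are 9 imprinted regulators of growth: Dlk1, Meg3, Rian, Mirg and Rtl1 of the Dlk1-Meg3 cluster, Igf2 and H19 of the Igf2-H19 domain, and the single loci Igf2r and Grb10. They were taken by symbol from the 48321 genes of the count tables, by a rule that uses no measured value. Polyadenylated RNA was sequenced from 76 libraries, each from a single oocyte, a single 2-cell (2C) embryo, a single blastocyst or the extraembryonic ectoderm (ExE) of an embryo at embryonic day 6.5. ExE is the trophoblast tissue from which much of the placenta forms. The libraries are wild type (WT) or carry a maternal knockout (matKO) of Ezhip, which encodes an inhibitor of the histone methyltransferase complex PRC2 in germ cells. The comparison within each stage is between libraries with and without the maternal knockout. After the oocyte it does not separate loss of the maternal product from loss of the embryo's own expression of the gene.

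Oocytes comprised 3 WT and 4 matKO libraries. There were 11 WT (5 female, 6 male) and 12 matKO (6 female, 6 male) 2C embryos, 14 WT (6 female, 8 male) and 14 matKO (7 female, 7 male) blastocysts, and 10 WT (6 female, 4 male) and 8 matKO (5 female, 3 male) ExE samples. The labels name no treatment, and strain, litter, number of mothers, paternal genotype and the extent of the deletion are not stated in them. Libraries may share a litter or a day, so the p-values below speak only of the spread from library to library.

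An imprinted gene is expressed from the allele of one parent only. At both clusters the parental marks are DNA methylation laid down in the germ line, whereas PRC2 lays down the histone mark H3K27me3, which marks a separate class of imprints in early embryos and the placenta. Paternally expressed Igf2 encodes insulin-like growth factor II, a fetal and placental mitogen; maternally expressed H19 is a noncoding RNA that shares enhancers with Igf2 and hosts a microRNA. Paternally expressed Dlk1 encodes a transmembrane protein related to Notch ligands, and paternally expressed Rtl1 a retrotransposon-derived protein of placental capillaries. Maternally expressed Meg3, Rian and Mirg are noncoding transcripts that carry microRNAs and small nucleolar RNAs. Igf2r encodes the receptor that clears IGF2, and Grb10 an adaptor that restrains insulin and IGF signalling; outside the brain both are mainly maternal products. Counts over a gene do not separate the alleles, so every value below is the sum of both.

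In the mm10 coordinates of the count tables, the Dlk1-Meg3 cluster lies on chromosome 12, with Dlk1 at chr12:109452823-109463336, Meg3 at chr12:109541001-109571726, Rtl1 at chr12:109589194-109600330, Rian at chr12:109603940-109661716 and Mirg at chr12:109729764-109749460. Rtl1 is on the minus strand and the others on the plus strand. H19 (chr7:142575529-142578143) and Igf2 (chr7:142650766-142666816) are neighbours on the minus strand of chromosome 7. Igf2r is at chr17:12682406-12769664 and Grb10 at chr11:11930508-12038683, both on the minus strand. The annotated exons of Rtl1 overlap those of Mir431, Mir433, Mir127, Mir434, Mir432 and Mir136 on the opposite strand. Since no strand setting is given, Rtl1 reads and reads of the maternal transcript across that stretch cannot be told apart. Igf2 shares 1.7% of its exon length with the antisense gene Igf2os and Meg3 shares 6.8% with Gm26906, also on the opposite strand.

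Dlk1, the member with the largest difference between genotypes in ExE, and Meg3 are expressed from opposite parental alleles of 1 cluster, so the 250 bases before their annotated starts are shown from RefSeq (GRCm38.p6, plus strand), with CpG dinucleotides, the sites of DNA methylation, in capitals.
Dlk1, chr12:109452573-109452822: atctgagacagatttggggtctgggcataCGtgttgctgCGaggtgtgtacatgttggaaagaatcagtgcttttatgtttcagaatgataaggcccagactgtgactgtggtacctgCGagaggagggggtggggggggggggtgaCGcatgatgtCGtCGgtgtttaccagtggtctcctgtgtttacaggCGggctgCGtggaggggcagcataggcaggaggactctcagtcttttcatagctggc
Meg3, chr12:109540746-109540995: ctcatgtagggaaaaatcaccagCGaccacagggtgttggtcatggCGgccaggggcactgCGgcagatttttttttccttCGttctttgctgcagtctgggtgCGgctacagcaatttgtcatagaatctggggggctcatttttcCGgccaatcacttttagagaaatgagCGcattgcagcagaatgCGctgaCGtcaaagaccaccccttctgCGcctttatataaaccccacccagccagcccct
The Dlk1 stretch holds 8 CpGs and the Meg3 stretch 10. Counted over the full RefSeq windows of 250 bases before to 50 after a start, Dlk1 has 9 and Meg3 13, against a median of 7 over 32851 mouse promoters. The motif TGCCGC, searched on both strands as the site of the imprint-protecting factor ZFP57, occurs on the reverse strand in the Meg3 window shown and also matches 1 Igf2 window and 1 Grb10 window. It is present in 11.6% of all promoter windows. RefSeq entries matched 7 of the 9 members. H19 and Rtl1 had none.

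Several members are also hosts of microRNAs, short RNAs that pair with messenger RNAs through a seed at bases 2 to 8. RefSeq places 2 mature microRNAs on the strand of H19, 2 on that of Igf2, 3 in Meg3, 6 in Rian and 26 in Mirg, and 11 opposite Rtl1. Those of H19 and Igf2 are shown with the seed in capitals, together with 2 from opposite Rtl1 and 1 from Meg3 picked as examples, because host and microRNA are read from the same stretch of DNA.
mmu-miR-675-5p: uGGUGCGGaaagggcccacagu
mmu-miR-675-3p: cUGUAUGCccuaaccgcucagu
mmu-miR-483-5p: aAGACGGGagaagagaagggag
mmu-miR-483-3p: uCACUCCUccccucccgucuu
mmu-miR-127-3p: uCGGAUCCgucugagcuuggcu
mmu-miR-433-3p: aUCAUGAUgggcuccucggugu
mmu-miR-770-5p: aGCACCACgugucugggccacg
miR-675 lies in H19, miR-483 in Igf2, miR-127 and miR-433 opposite Rtl1, and miR-770 in Meg3. No 2 of these 7 seeds are the same. Mature microRNAs have no poly(A) tail, so their levels are not measured by these libraries and the counts below are those of the host transcripts.

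Library totals, in megacounts (M), were 5.27 to 26.5 M in oocytes, 1.05 to 14.1 M in 2C embryos, 4.06 to 32.0 M in blastocysts and 2.74 to 26.7 M in ExE. Levels are in CPM, counts per megacount of library, on effective library sizes set within a stage. Ezhip, listed as AU022751, stood at 932 to 1508 CPM in WT oocytes against 0.116 to 0.569 CPM in matKO oocytes, and at 38.6 to 337 against 0 to 18.9 CPM in 2C embryos. In blastocysts it was at 0 to 45.8 CPM in WT and 0 to 2.04 CPM in matKO embryos. In ExE it was between 0 and 1.11 CPM in either genotype, so it checks no label there. The library identifiers carry prefixes: all oocytes and 2C embryos have D707T, blastocysts of both genotypes have D405T or D707T, and every WT ExE library has D1042C while every matKO ExE library has D707T. The labels do not say what a prefix stands for, and effects of prefix and of genotype cannot be told apart in ExE.

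In WT libraries all 9 members had their highest mean in ExE (the plot of levels by stage), although the ranges of Igf2r in 2C embryos (13.3 to 109 CPM) and ExE (25.9 to 91.5 CPM) overlapped. H19 and Igf2 dominated that stage, with 1768 ± 696 and 576 ± 332 CPM (SD, n = 10), followed by Meg3 at 221 ± 199 CPM and Grb10 at 221 ± 86.9 CPM. Divided by exon length, the levels in CPM per kilobase ran H19 745 ± 293, Igf2 101 ± 58, Grb10 24.3 ± 9.57, Meg3 12.2 ± 11, Igf2r 5.59 ± 2.20, Mirg 2.57 ± 2.02, Dlk1 1.80 ± 1.13, Rian 0.997 ± 0.625 and Rtl1 0.0982 ± 0.0753 (SD, n = 10). Within this order, Meg3 and Igf2r, Mirg and Dlk1, and Dlk1 and Rian were separated by less than the larger SD of each pair. The lowest member per length in ExE was Rtl1, with 71 counts in all 10 WT libraries together.

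**Figure D1:**
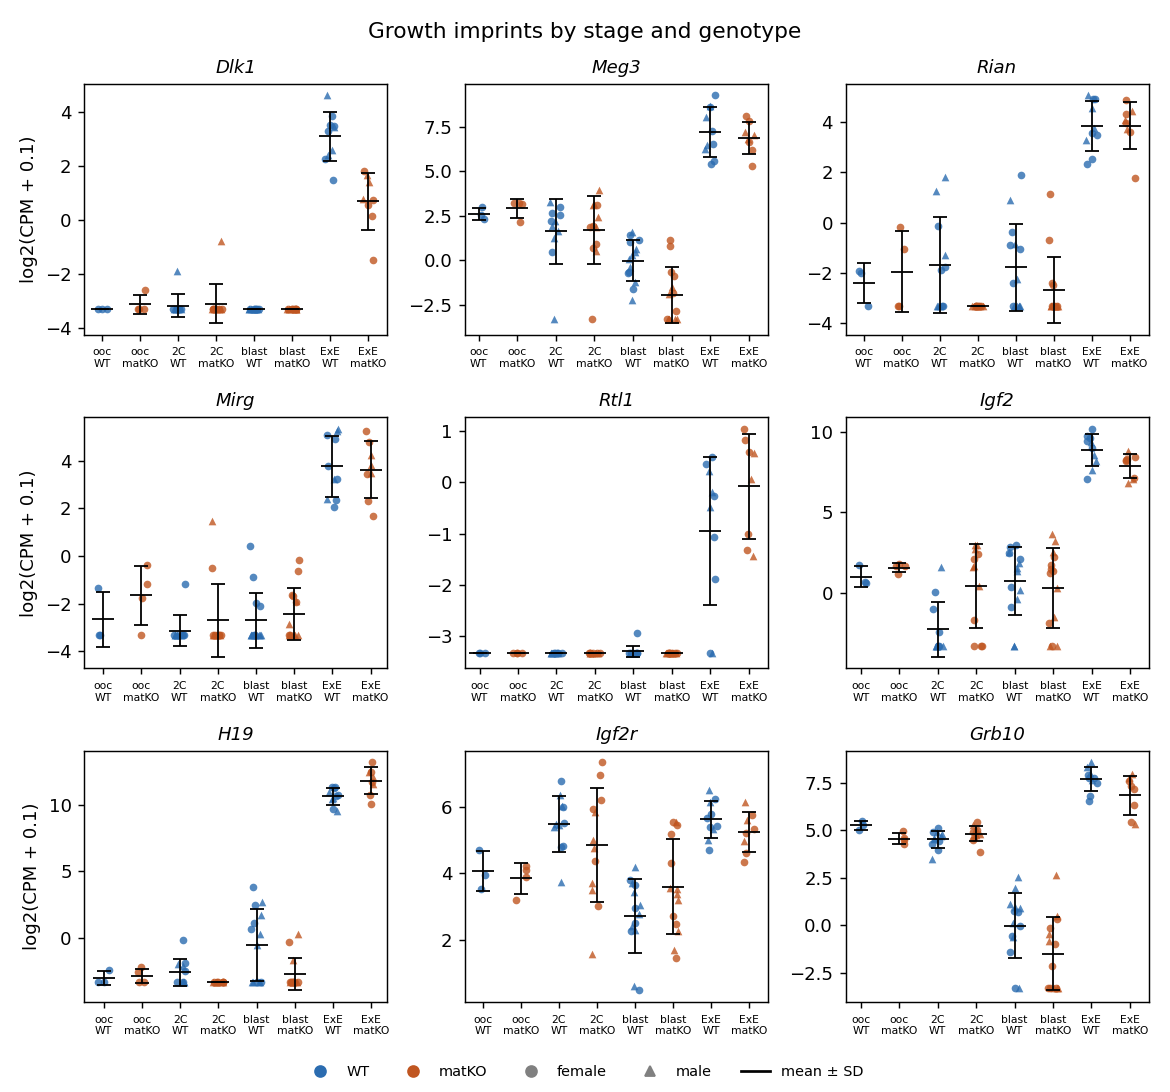
Level of each gene in every library, as log2(CPM + 0.1) on the vertical axis, by stage and genotype on the horizontal axis (ooc, oocyte; blast, blastocyst). Circles are female and triangles male libraries, and bars give the mean ± SD of the plotted values; all 9 genes have their highest mean in ExE, Dlk1 and Rtl1 sit near the floor before it, and Grb10 and Igf2r are also present in oocytes and 2C embryos.

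Before implantation only part of the set was measurable. In WT oocytes the highest member per length was Grb10, at 4.21 ± 0.65 CPM per kilobase, then Igf2r at 1.86 ± 0.81, Igf2 at 0.358 ± 0.180 and Meg3 at 0.343 ± 0.083 (SD, n = 3). Igf2 and Meg3 differed by less than their SDs. In 2C embryos Igf2r came first, at 5.45 ± 2.89 CPM per kilobase, then Grb10 at 2.61 ± 0.74, Meg3 at 0.246 ± 0.158 and Igf2 at 0.0690 ± 0.156 (SD, n = 11). The gap between Igf2r and Grb10 was smaller than the SD of Igf2r. In blastocysts H19 (1.03 ± 1.67), Igf2r (0.858 ± 0.520) and Igf2 (0.525 ± 0.461 CPM per kilobase) came before Grb10 (0.169 ± 0.170) and Meg3 (0.0659 ± 0.0494; SD, n = 14), and each neighbour in this order lay within the larger SD of the next.

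Steps between consecutive WT stages were tested in 1 edgeR quasi-likelihood fit over the 38 WT libraries and 19538 genes, with p-values adjusted over all genes (Benjamini-Hochberg, 0.05). From blastocyst to ExE all 9 members rose, where 57.4% of all genes changed and 31% rose. Dlk1, Mirg and Rtl1 met the expression filter of this fit only through ExE libraries, so a rise was the only call open to them. The count of 9 can therefore not be set against that share. On the log2 scale H19 rose by 9.33 ± 0.75 (SE, adjusted p = 3.8e-13), Mirg by 7.61, Meg3 by 7.39, Igf2 by 7.38, Grb10 by 7.24, Rian by 5.0 and Igf2r by 2.66 ± 0.34 (edgeR adjusted p = 1.3e-08). Dlk1 had 0 counts in 14 WT blastocysts and 1196 in 10 WT ExE libraries, at least 917-fold higher against a floor of 3 counts over the blastocyst group. Rtl1 had 1 count against 71, a ratio of 163 with a 95% counting interval of 28.4 to 6539. Stage and identifier prefix cannot be told apart for WT ExE.

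Between the 2C embryo and the blastocyst 5 of the 9 members changed, where 71.7% of all genes did (30.8% higher, 41% lower), and they did so in different directions. Igf2 rose by 3.16 ± 0.69 and H19 by 5.01 ± 1.00 on the log2 scale (SE, edgeR adjusted p = 1.1e-04 and 3.6e-05). Igf2r fell by 1.99 ± 0.33, Grb10 fell by 3.42 ± 0.39 and Meg3 fell by 1.19 ± 0.48 (adjusted p = 1.3e-06, 4.9e-10 and 0.0256), so the growth factor and its neighbour went up while the receptor that clears IGF2 and the signalling adaptor went down. With blastocysts and 2C embryos of prefix D707T alone, Igf2r and Grb10 kept their calls (-1.79 and -4.92) and Meg3 did not (-2.34, edgeR adjusted p = 0.0745). Meg3 also missed the threshold with the newer dispersion fit of edgeR (adjusted p = 0.0584). Igf2 then stood at -0.37 (edgeR adjusted p = 0.851), and H19 had no count in any D707T blastocyst, so the rises of Igf2 and H19 rest on libraries of the other prefix. From oocyte to 2C embryo 44.4% of all genes changed (23.9% fell), and 1 member did: Grb10 fell by 1.43 ± 0.56 (adjusted p = 0.0341), a call that was lost when any 1 of the 3 WT oocytes was left out. All oocytes and 2C embryos have prefix D707T, so a fit of D707T libraries alone is no check of prefix for this step. It compared the same oocytes and 2C embryos and left out the ExE and D405T libraries that share the filter, scaling and dispersion. Grb10 was then -0.81 (edgeR adjusted p = 0.326) and Igf2r the 1 member called, at 1.45 (edgeR adjusted p = 0.0456).

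In ExE matKO libraries had less Dlk1 and less Igf2 and more H19 than WT libraries (the plot of ExE levels). Meg3, Rian and Mirg, the noncoding members of the Dlk1-Meg3 cluster, did not pass the test. Of the 9 members, 3 were called: 2 fell and 1 rose. Across all 14156 genes tested in ExE 24.9% were called, 14.1% higher and 10.7% lower, and the members' share is read against that background. The median log2 difference was -0.37 over the members and -0.07 over all genes.

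**Figure D2:**
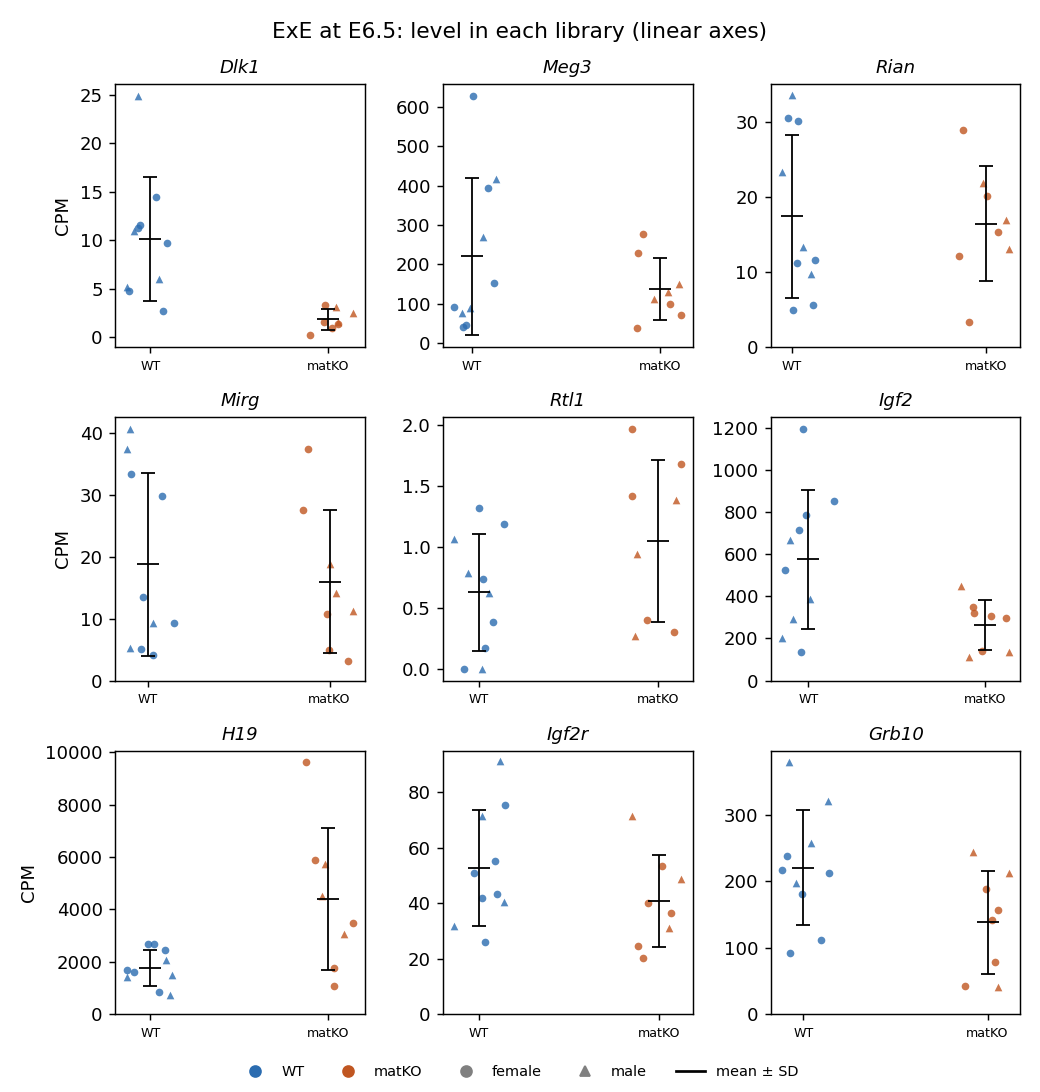
Level of each gene in CPM (vertical axes, linear) in 10 WT and 8 matKO ExE libraries; circles are female and triangles male, and bars give the mean ± SD. Of the matKO libraries, 6 of 8 lie below every WT library for Dlk1 and 6 of 8 above every WT library for H19, while Meg3, Rian and Mirg overlap.

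Dlk1, the Notch-ligand relative, ranged from 2.73 to 24.9 CPM in WT ExE (median 10.3) and from 0.253 to 3.39 CPM in matKO ExE (median 1.59). The matKO values lay at the bottom of the range, with 6 of 8 libraries below every WT library and all 8 below the WT mean. The means were 10.2 ± 6.39 (SD, n = 10) and 1.86 ± 1.08 CPM (SD, n = 8), a log2 difference of -2.44 ± 0.46, or 5.42-fold lower (edgeR quasi-likelihood test, adjusted p = 0.000659). The difference was -2.57 ± 0.60 in females (edgeR adjusted p = 0.0108) and -2.24 ± 0.75 in males (adjusted p = 0.0760), and the interaction with sex had an adjusted p of 0.999. Dlk1 was the 1 member called in females and none was called in males, where 9.69% and 5.28% of all genes were; the newer dispersion fit of edgeR called 2 and 1, where it called 15.3% and 8.6%. Leaving out any 1 library moved it between -2.76 and -2.21 with the call kept.

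Igf2 ranged from 135 to 1198 CPM in WT ExE (median 597) and from 114 to 449 CPM in matKO ExE (median 303). The groups overlapped, since 1 matKO library lay below every WT library, but all 8 were below the WT mean. Mean levels were 576 ± 332 and 265 ± 121 CPM (SD, n = 10 and 8), a log2 difference of -1.08 ± 0.35, or 2.12-fold lower (edgeR adjusted p = 0.0271). The call was lost without matKO male 3 (-1.0, adjusted p = 0.0520) or WT male 3 (-0.96, adjusted p = 0.0566).

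H19, the maternal noncoding neighbour, moved the other way. It ranged from 734 to 2692 CPM in WT ExE (median 1658) and from 1072 to 9609 CPM in matKO ExE (median 4002), with 6 of 8 matKO libraries above every WT library. The log2 difference was 1.33 ± 0.34, or 2.51-fold higher (means 1768 ± 696 and 4389 ± 2722 CPM, SD, n = 10 and 8, edgeR adjusted p = 0.00689). By sex it was 1.13 in females (edgeR adjusted p = 0.102) and 1.64 in males (adjusted p = 0.0804), with an interaction at an adjusted p of 0.999.

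Because H19 and Igf2 were called in opposite directions, a larger log2 difference of their ratio follows by arithmetic and is not a separate result. The ratio of H19 to Igf2 counts needs no scaling between libraries (the plot of H19 against Igf2). It ran from 2.22 to 6.29 in WT ExE (median 3.14) and from 3.33 to 33.2 in matKO ExE (median 20.8), with 6 of 8 matKO libraries above every WT library. The mean difference of its log2 was 2.16, or 4.47-fold (exact permutation test, two-sided, p = 0.000548, 0.00219 after adjustment over 4 ratios). Leaving out any 1 library gave 2.00 to 2.47 with an adjusted p no higher than 0.00494. The 2 matKO libraries inside the WT range were female 2 at 3.33 and female 5 at 5.84.

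**Figure D3:**
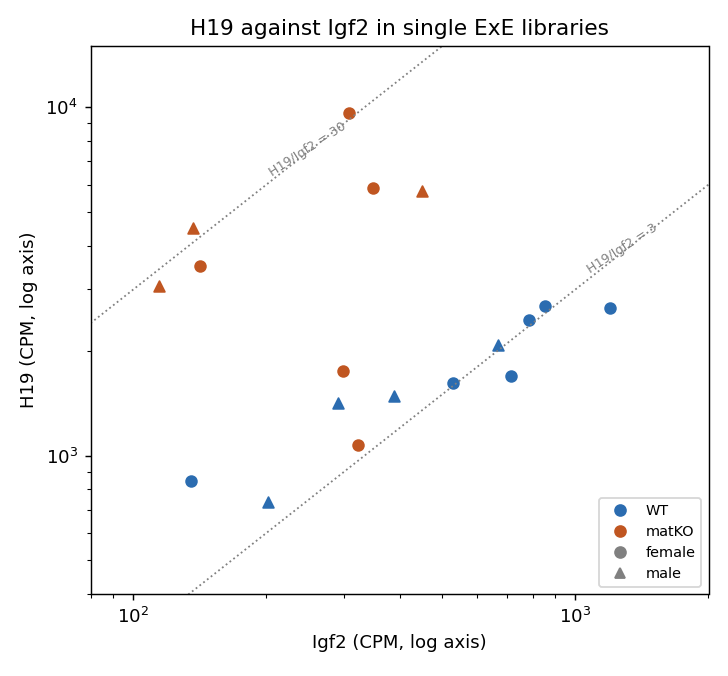
H19 level against Igf2 level in single ExE libraries, both in CPM on log axes; dotted lines mark H19 to Igf2 ratios of 3 and 30. WT libraries (blue) lie along a line near a ratio of 3, whereas 6 of the 8 matKO libraries (orange) lie at ratios of 12.8 to 33.2.

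Igf2 and H19 also varied together from library to library in WT ExE. Across the 10 WT ExE libraries the log2 levels of Igf2 and H19 rose together (Pearson r = 0.943, Spearman rho = 0.964, permutation p = 6.0e-05, adjusted p = 0.0036 over 72 relations within the genotypes), and r was 0.892 without the 2 libraries farthest from the median Igf2. Across the 8 matKO libraries r was 0.083 and rho 0.333 (exact permutation p = 0.838, adjusted p = 0.909). The difference between these 2 correlations was not tested, and libraries of a genotype share a prefix and vary in tissue makeup.

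Within the Dlk1-Meg3 cluster the 3 maternal noncoding members did not pass the test between genotypes and varied together between libraries. Meg3 was at 42.2 to 628 CPM in WT ExE (median 122) and 39.4 to 277 CPM in matKO ExE (median 121), a log2 difference of -0.68 ± 0.52 (edgeR adjusted p = 0.363). Rian was at 4.90 to 33.6 CPM (median 12.5) and 3.29 to 29 CPM (median 16.1), a difference of -0.07 ± 0.39 (adjusted p = 0.916). Mirg was at 4.08 to 40.7 CPM (median 11.4) and 3.13 to 37.5 CPM (median 12.7), a difference of -0.20 ± 0.52 (adjusted p = 0.804). The WT and matKO ranges overlapped for all 3.

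Meg3 and Rian correlated at r = 0.964 in WT (rho 0.939, permutation, adjusted p = 0.0036) and at 0.908 in matKO ExE (rho 0.905, exact permutation, adjusted p = 0.025). Meg3 and Mirg correlated at 0.953 in WT (rho 0.915) and 0.910 in matKO ExE (rho 0.952, exact permutation, adjusted p = 0.0339). Rian and Mirg correlated at 0.951 in WT (rho 0.903, permutation, adjusted p = 0.0036) and 0.794 in matKO ExE (rho 0.762, exact permutation, adjusted p = 0.0962), the latter being 0.316 without 2 libraries. Without the 2 libraries farthest from the median Meg3 the 4 values of r with Meg3 were 0.959, 0.758, 0.969 and 0.727. Dlk1 and Meg3, from opposite parental alleles, had r = -0.724 in WT (rho -0.588, permutation p = 0.0188, adjusted p = 0.0965) and 0.725 in matKO ExE (rho 0.643, adjusted p = 0.136 by exact permutation), the second falling to -0.04 without 2 libraries. Neither passed the adjustment.

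The count ratio of Meg3 to Dlk1 was 3.56 to 144 in WT ExE (median 9.24) and 48.4 to 226 in matKO ExE (median 66.1), a mean log2 difference of 2.19, or 4.57-fold (exact permutation p = 0.0162, adjusted p = 0.0324). Dlk1 was called lower by itself and Meg3 was not called, so this ratio is not a separate result. The ranges of the ratio overlapped and 2 of 8 matKO libraries were above every WT library. The call was lost when any 1 of 6 WT libraries (females 1, 2, 3 and 5, males 1 and 3) or 2 matKO libraries (females 1 and 2) was left out, with values of 1.94 to 2.11 and adjusted p up to 0.0623 (exact permutation). Meg3 to Rian had medians of 10.6 and 8.21 and Meg3 to Mirg of 10.3 and 9.08, with log2 differences of -0.33 and -0.20 (exact permutation, adjusted p = 0.185 and 0.398).

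Rtl1, the capillary protein gene, was close to the detection limit, at 0 to 1.31 CPM in WT ExE (median 0.676, 2 libraries at 0) and 0.268 to 1.96 CPM in matKO ExE (median 1.16). Its difference of 0.71 ± 0.74 rested on 71 and 77 counts in all (edgeR adjusted p = 0.507). Igf2r, the IGF2 clearance receptor, was at 25.9 to 91.5 CPM in WT (median 47) and 20.3 to 71.4 CPM in matKO ExE (median 38.4), a difference of -0.37 ± 0.26 (adjusted p = 0.296). Grb10 was at 91.6 to 380 CPM (median 215) and 40.7 to 245 CPM (median 150), a difference of -0.63 ± 0.31 (edgeR adjusted p = 0.139). The groups overlapped for these 3 genes, with 3 of 8 matKO libraries below every WT library for Grb10.

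Markers of other cell types also differed between the ExE groups. The sum over the mesoderm list was 42.8 to 737 CPM in WT and 9.55 to 42.7 CPM in matKO libraries, so that all 8 matKO libraries were below every WT library, and 5 of 8 tested genes fell and 1 rose. The sum over decidua and stroma genes, listed as markers of maternal tissue around the implant, was 36.2 to 320 against 89.0 to 1244 CPM. It was above every WT library in 4 of 8, and 8 of 16 rose. The same list summed to 206 to 315 CPM in WT oocytes, so it does not by itself identify maternal tissue. Genes of the ectoplacental cone and giant cells summed to 29.6 to 138 against 41.6 to 2264 CPM (2 of 4 rose, with Prl3b1 and Ctsq at 0 in all libraries), blood genes to 0.098 to 32.5 against 2.17 to 382 CPM (3 of 4 rose), and macrophage genes to 2.36 to 9.81 against 9.03 to 38 CPM (2 of 3 rose). Endothelium genes summed to 5.07 to 65.5 against 7.51 to 102 CPM (3 of 6 rose, 1 fell). Trophectoderm genes summed to 303 to 1115 against 641 to 4750 CPM, with 5 of 8 matKO libraries above every WT library (3 of 7 rose, 1 fell). The ExE list itself summed to 431 to 1267 against 212 to 1183 CPM, with none of its 9 genes at 0, 1 higher and 1 lower. Visceral endoderm genes summed to more than the ExE list in both genotypes, 1461 to 6937 against 1607 to 13563 CPM (1 of 11 rose, 2 fell). In such tissue pieces fewer cells of a type and less RNA per cell cannot be told apart, and the part of these cell types in the Dlk1, Igf2 and H19 differences was not tested beyond the values that follow.

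Without the 4 matKO libraries richest in stroma genes (male 1 and females 2, 4 and 5), Dlk1 stood at -2.18 (edgeR adjusted p = 0.0141), H19 at 1.67 (adjusted p = 0.00259) and Igf2 at -1.04 (adjusted p = 0.158), and the log2 of the H19 to Igf2 ratio at 2.74 (exact permutation, adjusted p = 0.00799). Without the 3 WT libraries richest in mesoderm genes (males 1 and 2 and female 5), they stood at -2.48 (edgeR adjusted p = 0.00284), 1.26 (adjusted p = 0.0348), -1.08 (adjusted p = 0.0514) and 2.11 (exact permutation, adjusted p = 0.00995). The calls of Dlk1 and H19 were kept with either set left out, and the Igf2 call was not. That of the H19 to Igf2 ratio was also kept, but it is not a separate result. The Meg3 to Dlk1 ratio lost its call both times (2.36 and 2.22, exact permutation, adjusted p = 0.101 and 0.0709).

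Over all 18 ExE libraries the profiles most like that of Meg3 were those of Mirg (Pearson r = 0.924 of log2 CPM), Rian (0.922) and Dgkk (0.899), and the only gene from outside the cluster among the 3 nearest was Sulf2 for Rian (0.876) and Klf9 for Mirg (0.904). Dlk1 was nearest to Spin2c (0.914), Tspan13 (0.879) and the pseudogene Rps19-ps3 (0.879), whose reads may belong to its parent gene. Igf2 was nearest to Psmd5 (0.846), Med31 (0.824) and Rap1gds1 (0.815), and H19 to Eif5a (0.887), Maz (0.884) and Src (0.873), so neither Igf2 nor H19 was among the 3 nearest of the other once both genotypes were pooled. For Igf2r the nearest were Slc16a1 (0.892), Ctage5 (0.868) and Epb41l2 (0.857), and for Grb10 they were Adgrl1 (0.891), Plekha5 (0.887) and Ndrg2 (0.887). These values are descriptive, since the libraries share prefix and genotype.

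Other genes in and around the clusters gave a mixed picture in ExE. In or next to the Dlk1-Meg3 cluster 5 further listed genes were tested, of which 2 rose and 1 fell. Wars, a tryptophan-tRNA synthetase gene upstream of Dlk1, rose by 1.24 ± 0.22 on the log2 scale (edgeR adjusted p = 3.7e-04). Wdr25 rose by 1.18 ± 0.43 (edgeR adjusted p = 0.0450), and the noncoding B830012L14Rik fell by 2.17 ± 0.72 (edgeR adjusted p = 0.0344). Near Igf2-H19 2 of 6 rose, Mrpl23 by 1.16 ± 0.32 and Lsp1, a leukocyte gene, by 1.73 ± 0.61 (edgeR adjusted p = 0.0122 and 0.0407). Near Igf2r and Grb10 1 of 7 fell, the dopa decarboxylase gene Ddc, by 0.86 ± 0.20 (edgeR adjusted p = 0.00434). The list medians were 0.18, 0.61 and -0.33 against -0.07 over all genes.

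In the IGF pathway 18 genes were tested, 2 rose and 5 fell, with a median of 0.04. Akt1, a kinase downstream of the IGF receptor, rose by 1.76 ± 0.26 (46 ± 22.3 CPM in WT, n = 10, and 158 ± 55.7 CPM in matKO, n = 8, edgeR adjusted p = 5.0e-05), and Igfbp6, a binding protein selective for IGF2, rose by 2.65 ± 0.78 (adjusted p = 0.0168). Igfbp5, another binding protein, fell by 2.07 ± 0.51 (32.6 ± 12.7 and 7.64 ± 6.51 CPM, edgeR adjusted p = 0.00575). Igf1r, the receptor through which IGF2 signals, was chosen after its value was seen: it fell by 1.24 ± 0.45 (9.16 ± 6.66 and 3.31 ± 1.94 CPM, edgeR adjusted p = 0.0484).

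Of the Notch and Delta genes, the relatives of Dlk1, 2 of 10 rose and 2 fell, with a median of -0.41. The ligands Dll4 and Jag2 rose by 5.80 ± 1.09 and 3.01 ± 1.07 from means of 0.139 and 0.141 CPM, and the receptor Notch2 and the Notch target Hey1 fell by 1.31 ± 0.30 and 1.67 ± 0.55 (edgeR adjusted p = 6.7e-04, 0.0418, 0.00321 and 0.0302). Of 11 tested factors that keep or set DNA-methylation imprints, Dppa3 rose by 3.33 ± 1.02 (adjusted p = 0.0209) with 4 of 8 matKO libraries above the WT mean, and Setdb1 fell by 0.60 ± 0.17 (edgeR adjusted p = 0.0127), with a median of -0.02. Among 13 other imprinted or placental growth genes 3 rose and 2 fell (median -0.21). Cdkn1c and Phlda2, maternally expressed brakes on placental growth, rose by 1.40 ± 0.29 and 2.16 ± 0.56, the X-linked placental gene Plac1 rose by 2.56 ± 0.67, and Zim1 fell by 3.13 ± 0.73 (edgeR adjusted p = 0.00135, 0.00900, 0.0114 and 0.00368).

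In blastocysts the noncoding members Meg3 and H19 had the largest fitted differences of the set, both lower in matKO embryos, but none of the 5 members tested was called, where 6.3% of 13445 genes were. At an unadjusted edgeR p under 0.05 there were 2, Meg3 (0.00467) and H19 (0.0461). The newer dispersion fit of edgeR called both, where it called 13.4% of all genes. Both met the expression filter only through the WT embryos, so a fall was favoured by the filter. The median log2 difference was -1.22 over the 5 members and -0.03 over all genes. The 4 others held few counts or none: Rian 113 in WT and 32 in matKO embryos, Mirg 32 and 30, Rtl1 1 and 0, and Dlk1 0 in all 28 libraries.

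Meg3 was present in all 14 WT blastocysts, at 0.111 to 2.95 CPM (median 1.04), and in 8 of 14 matKO blastocysts, at 0 to 2.08 CPM (median 0.106). The groups overlapped, with 7 of 14 matKO embryos below every WT embryo and 350 against 46 counts in all. The fitted log2 difference was -3.34 ± 1.10 (edgeR adjusted p = 0.0647, 0.00951 with the newer fit), a larger step than the means of 1.19 ± 0.893 and 0.381 ± 0.655 CPM (SD, n = 14 each) give. It was -3.47 in DESeq2 (adjusted p = 0.000731) and -2.75 in limma-voom (adjusted p = 0.0111). Leaving out WT male 4, WT female 5 or matKO female 4 also brought the edgeR adjusted p under the threshold, to 0.0442, 0.0467 and 0.0433. In 25 of 28 such fits it stayed above, up to 0.136. Other edgeR settings kept Meg3 uncalled. The adjusted p was 0.0653 with RLE scaling, 0.0774 without the prefix term and 0.0910 without the expression filter. With the replicate number as a block it was 0.173, and without the sex term 0.209 (difference -2.34).

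The low Meg3 values lay mainly in male matKO blastocysts. These held 3 Meg3 counts in all, with 5 of 7 embryos at 0, against 181 counts in 8 of 8 WT males, a pooled ratio of 46.7 with a 95% counting interval of 15.7 to 228. Female matKO blastocysts were at 0 to 2.08 CPM (median 0.436) against 0.222 to 2.54 CPM in WT females (median 1.22). The fitted difference was -5.0 ± 1.30 in males (edgeR adjusted p = 0.0435, 1 of 5 members called where 1.52% of all genes were) and -1.73 ± 1.21 in females (adjusted p = 0.726, 0.208% of all genes). The interaction of 3.28 had an edgeR adjusted p of 1 (0.00744% of all genes called), so the sexes were not shown to differ. Of its neighbours, Rian also had no count in 7 matKO males, and 19 counts in 3 of 8 WT males. Mirg went the other way, with 2 counts in 2 of 7 matKO males and none in 8 WT males.

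By prefix, Meg3 averaged 1.36 ± 0.97 CPM in WT (n = 10) and 0.109 ± 0.174 CPM in matKO blastocysts (n = 6) of prefix D405T, and 0.761 ± 0.550 CPM in WT (n = 4) and 0.585 ± 0.815 CPM in matKO (n = 8) of D707T. The difference was -4.17 within D405T (edgeR adjusted p = 0.0441) and -2.03 within D707T (adjusted p = 0.665). H19 had counts in 8 of 10 WT and 3 of 6 matKO blastocysts of D405T, at 3.42 ± 4.34 and 0.339 ± 0.469 CPM, and in none of the 12 blastocysts of D707T. Over all embryos it ranged from 0 to 14.1 CPM in WT (median 0.840, 954 counts) and 0 to 1.12 CPM in matKO (median 0, 50 counts), a difference of -2.99 ± 1.41 (edgeR adjusted p = 0.243, 0.0143 with the newer fit). This is the opposite sign to the H19 difference in ExE, and the difference between the stages was not tested.

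**Figure D4:**
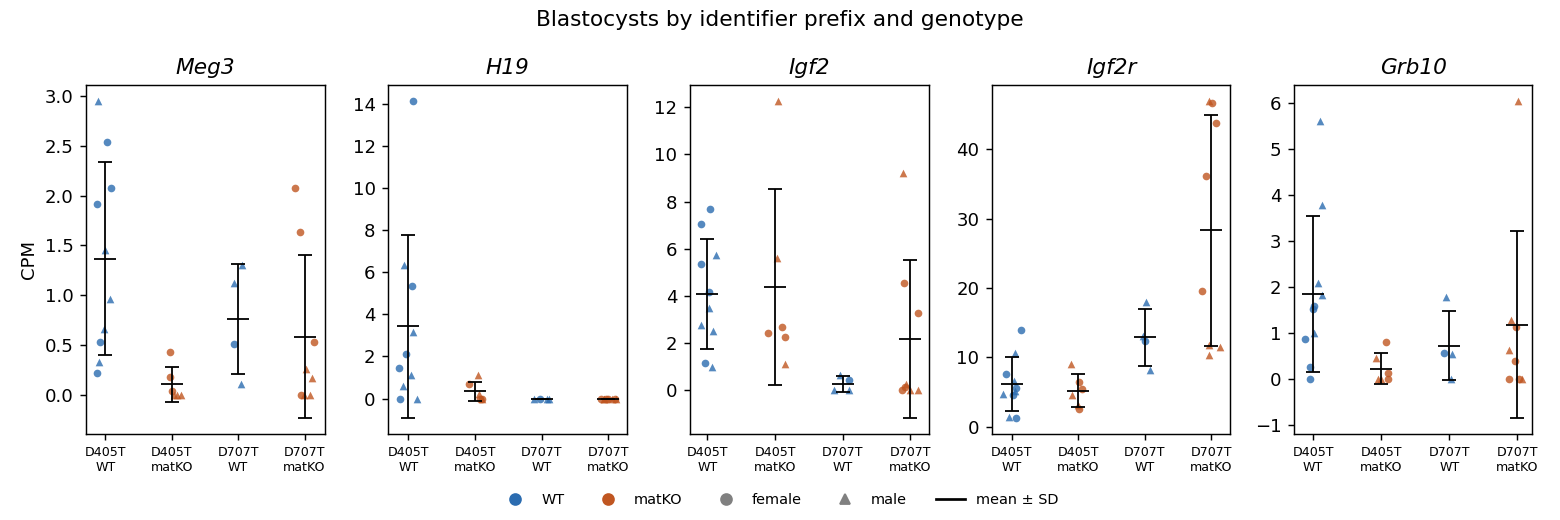
Level in CPM (linear axes) of the 5 members tested in blastocysts, by identifier prefix and genotype; circles are female and triangles male embryos, and bars give the mean ± SD. H19 is at 0 in all 12 embryos of prefix D707T, Igf2r is higher in D707T than in D405T, and low Meg3 in matKO embryos is plainest in D405T.

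Igf2 in blastocysts was at 0 to 7.68 CPM in WT (median 2.64) and 0 to 12.3 CPM in matKO embryos (median 2.34), a difference of 1.09 ± 0.88 (edgeR adjusted p = 0.556). It was 0.09 within D405T, where WT embryos averaged 4.09 ± 2.33 CPM (SD, n = 10), and 2.86 within D707T, where WT embryos averaged 0.278 ± 0.335 CPM (SD, n = 4) with 2 of 4 at 0. Igf2r was at 1.28 to 18 CPM (median 7.16) and 2.62 to 47 CPM (median 10.9), with a difference of 0.27 ± 0.37 (adjusted p = 0.772), and it was -0.24 within D405T and 0.90 within D707T. Grb10 was at 0 to 5.6 CPM (median 1.26) and 0 to 6.05 CPM (median 0.269), with a difference of -1.22 ± 1.15 (adjusted p = 0.633), -2.64 within D405T and 0.64 within D707T. All 3 ranges overlapped. Over the 28 blastocysts the profiles nearest to Igf2r were those of Krtcap2 (r = 0.898), Dpm3 (0.888) and Mif (0.886).

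Trophectoderm markers fell in the same comparison: their sum was 2168 to 6809 CPM in WT and 772 to 4842 CPM in matKO blastocysts, 8 of 14 matKO embryos were below every WT embryo, and 5 of 8 markers fell. Oocyte genes summed to 63.9 to 148 against 27.5 to 82.0 CPM, with 11 of 14 matKO embryos below every WT embryo and 1 of 6 tested genes lower. For ectoplacental cone and giant cell genes 9 of 14 matKO sums exceeded the WT maximum, and for endothelium and for visceral endoderm genes 8 of 14 did. Their part in the Meg3 and H19 values was not tested. Among the listed pathway genes 3 were called, Dppa3 (0.44 ± 0.13, edgeR adjusted p = 0.0423) of 11 imprint factors and Slc38a4 and Plac1 of 9 growth genes. Slc38a4, an amino acid transporter of the placenta, fell by 0.70 ± 0.18 (67.4 ± 31.4 and 34.9 ± 11.1 CPM, edgeR adjusted p = 0.0139), and Plac1 fell by 5.82 ± 0.78 (10.9 ± 10.3 and 0.143 ± 0.339 CPM, adjusted p = 3.0e-05). No tested gene near the clusters, in the IGF pathway or in the Notch list was called in blastocysts by this fit, whereas the newer fit called 2 IGF genes and 1 Notch gene. Plac1, higher in matKO ExE, was lower in matKO blastocysts.

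In 2C embryos the Igf2 message was more often detected in matKO than in WT embryos, but none of the 4 members tested was called, where 0.731% of 14506 genes were. Igf2 had the only unadjusted edgeR p under 0.05 among them (0.0212). No WT embryo but male 5 was above 0.933 CPM, so Igf2 met the expression filter only through matKO embryos. A rise was therefore favoured by the filter. It was at 0 to 2.94 CPM in WT (median 0, counts in 4 of 11 embryos) and at 0 to 7.86 CPM in matKO embryos (median 3.01, counts in 9 of 12), and 7 of 12 matKO embryos were above every WT embryo. The fitted difference was 2.72 ± 1.12 (edgeR adjusted p = 0.263, 0.132 with the newer fit) and rested on 38 and 109 counts. Of the 38, 27 came from WT male 5, without which the difference was 4.13 (edgeR adjusted p = 0.158).

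Those 7 embryos were the ones with identifier numbers 42 to 48, at 2.97 to 7.86 CPM, while the 5 matKO embryos numbered 37 to 41 were at 0 to 1.21 CPM (the plot by identifier number). Igf2r ran the other way, at 2.89 to 32.1 CPM in numbers 42 to 48 (median 12.9), 57.3 to 163 CPM in numbers 37 to 41 (median 73.4) and 13.3 to 109 CPM in WT embryos (median 45). Its overall difference was -0.31 ± 0.46 (edgeR adjusted p = 0.806). Meg3 had medians of 8.52, 1.78 and 4.50 CPM in the same order and an overall difference of 0.12 ± 0.69 (adjusted p = 0.963). Without numbers 42 to 48 the differences were -0.74 for Igf2, 0.77 for Igf2r and -1.31 for Meg3, each of the opposite sign (edgeR adjusted p = 0.882, 0.339 and 0.624). These 7 embryos are those highest in Igf2, so a lower Igf2 difference without them follows from the choice and is no check. Male 4 was the only matKO male left in that fit.

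**Figure D5:**
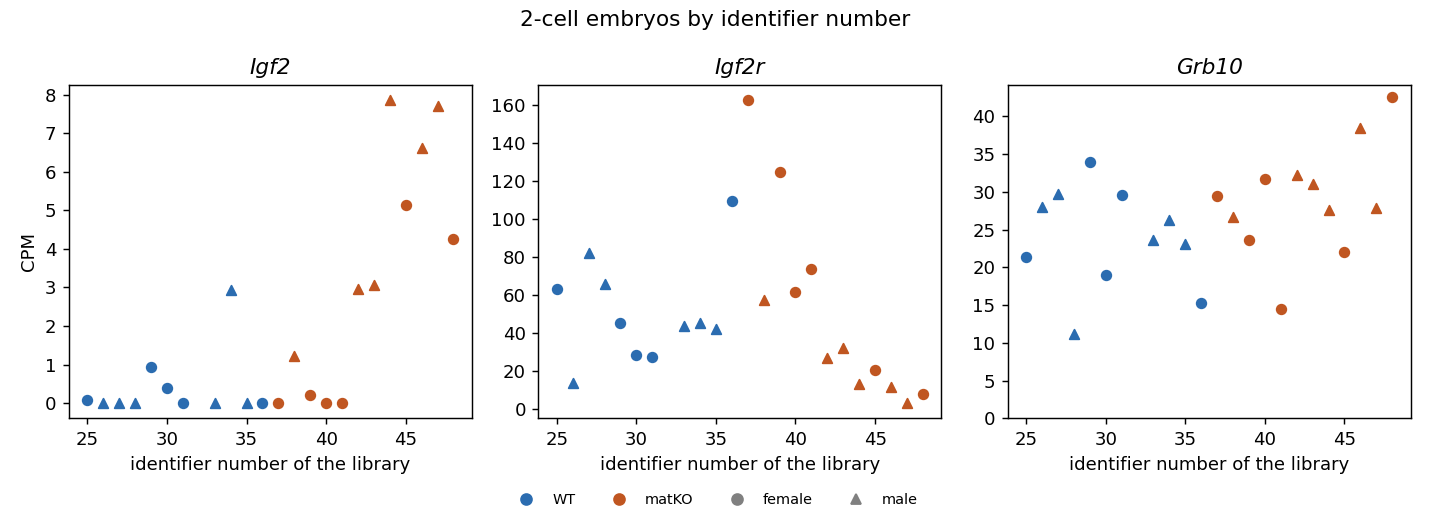
Level in CPM of Igf2, Igf2r and Grb10 in single 2C embryos (vertical axes, linear) against the number in the library identifier (horizontal axis); circles are female and triangles male, blue WT and orange matKO. The 7 embryos numbered 42 to 48 hold all Igf2 values above 2.94 CPM and the lowest Igf2r value, 2.89 CPM, while Grb10 overlaps throughout.

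The same 7 embryos stood apart in markers. Genes typical of the 2C stage summed to 905 to 2132 CPM in them, against 263 to 443 CPM in numbers 37 to 41 and 180 to 592 CPM in WT embryos, and oocyte genes summed to 2832 to 4052, 1601 to 2801 and 1373 to 3000 CPM. Their totals were 1.48 to 4.65 M, against 4.19 to 11 M and 1.05 to 14.1 M. Granulosa cell genes summed to 114 to 153, 162 to 309 and 110 to 1815 CPM, and 4 of 10 fell between the genotypes. The part of these in the Igf2 and Igf2r values was not tested.

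Grb10 ranged from 11.2 to 34 CPM in WT and from 14.5 to 42.6 CPM in matKO embryos, with a difference of 0.28 ± 0.25 (edgeR adjusted p = 0.643). Rian had 52 counts in 6 of 11 WT embryos, 21 and 20 of them in WT males 5 and 6, and none in 12 matKO embryos. The other 5 WT embryos were also at 0. Pooled over embryos, Rian was at least 12.1-fold lower against a floor of 3 counts over the group (0.0567 CPM). That pooled value leaves out the spread between embryos, so it is no lower bound for the genotype. Rian was too low to enter the test. H19 had 8 counts in 5 of 11 WT embryos and none in matKO embryos, and 4 of the 8 came from WT female 3. Dlk1 had 1 count in each genotype, Mirg 2 and 5, and Rtl1 none. In the pathway lists 1 gene was called, Grb14, an adaptor related to Grb10, which fell by 7.25 ± 1.19 (6.47 ± 7.68 CPM in WT, n = 11, and 0.0211 ± 0.0732 CPM in matKO, n = 12, edgeR adjusted p = 0.00207).

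In oocytes Grb10 was lower in all 4 matKO than in all 3 WT libraries, at 23.8, 30.8, 18.9 and 21.9 CPM against 38.2, 32.4 and 44.3 CPM. The difference of -0.69 ± 0.26 had an unadjusted p of 0.0230 and did not pass adjustment over 14838 genes (edgeR adjusted p = 0.785). None of the 4 members tested was called, where 0.0202% of all genes were, and Grb10 was the only one with an unadjusted p under 0.05. Meg3 was at 5.80, 4.94 and 7.87 CPM in WT and 8.74, 9.19, 9.21 and 4.27 CPM in matKO oocytes, overlapping, with a difference of 0.33 ± 0.44 (edgeR adjusted p = 0.940). Igf2 was at 3.24, 1.44 and 1.48 CPM against 3.11, 3.00, 3.30 and 2.17 CPM (0.49 ± 0.61, adjusted p = 0.932), with 1 matKO oocyte above every WT oocyte.

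Igf2r was at 15.2, 26.1 and 11.4 CPM in WT oocytes and at 17, 18.6, 14.6 and 9.0 CPM in matKO oocytes, again overlapping, with a difference of -0.25 ± 0.39 (edgeR adjusted p = 0.950). Rian, Mirg and H19 had 4 and 13, 4 and 18, and 1 and 2 counts in WT and matKO oocytes, Dlk1 0 and 1, and Rtl1 none. Decidua and stroma genes summed to 206 to 315 CPM in WT and 107 to 182 CPM in matKO oocytes, and their part in the Grb10 values was not tested. No gene of the pathway and neighbour lists was called in oocytes by either fit.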

How the data were processed

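Per the submitters' processing notes, the authors used Trim Galore, STAR, SAMtools and featureCounts with build mm10. Versions, annotation release, strand setting and the handling of multi-mapping reads are all not given in the sources used here. The authors deposited 1 table of raw integer counts for each stage; 8 count columns that match no sample label were not used. Genes were filtered within each stage (filterByExpr, minimum count 10 by stage, genotype and sex) and scaled by TMM. Genotypes were compared in R 4.3.3 with edgeR 4.0.16 (glmQLFit, robust, legacy dispersion), with sex as a term after the oocyte stage and identifier prefix as a term in blastocysts, and p-values were adjusted over all genes of a stage at 0.05. The SE is the one implied by the F test. WT stages were compared in 1 joint fit. Alternatives were the newer edgeR dispersion, DESeq2 1.42.0, limma 3.58.1 (voom), RLE scaling and no filter. Others were no prefix term, no sex term, single prefixes, a replicate block and leaving out libraries. The fits without stroma-rich or mesoderm-rich ExE libraries and without 2C numbers 42 to 48, and those of the ratios with libraries left out, were chosen after seeing the data. Count ratios were compared by exact permutation of samples. The fits were tested on simulated data. No 2 libraries of a group agreed within sampling noise, with a lowest chi-square per degree of freedom of 10.1.

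The members, the pathway and marker lists and the ratios were chosen with earlier results of these data known. Every member is reported; from each pathway or neighbour list the called genes are named per stage, at most the 4 of lowest p (1 such gene is not reported here), and for members with at least 5 CPM the 3 genes of highest correlation. Intervals and floors cover counting error only.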

Additional observations from a re-analysis of the deposited data

Results flagged for a closer look

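A single library stood apart from the rest of its genotype and sex in 8 of the 67 groups checked. The groups held 4 to 10 values and were checked by Dixon's ratio of gap to range. Its cut-off flags about 1 in 20 groups of normally distributed values. Levels in CPM with many zeros are not so distributed, so that rate is no background for the 8. Where all other libraries are at 0, the ratio is 1 by arithmetic. This holds for Igf2 in 2C WT male 5 and H19 in blastocyst matKO female 2. In 2C embryos, WT male 3 had 11.2 CPM of Grb10 where the other males had 23.1 to 29.7, and WT male 5 had 2.94 CPM of Igf2 where the others had 0. Among matKO blastocysts, male 7 had 6.05 CPM of Grb10 (others 0 to 1.28), male 4 had 47 CPM of Igf2r (others 3.12 to 11.7), male 1 had 1.12 CPM of H19 (others 0 to 0.211) and female 2 had 0.702 CPM of H19 (others 0). In ExE, matKO female 1 had 141 CPM of Igf2 where the other matKO females had 299 to 348. In oocytes, matKO library 4 had 4.27 CPM of Meg3 where the others had 8.74 to 9.21.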

How the results depend on the processing

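Counts of called members stayed within 1.5 times of the reported value in 50 of 59 alternatives. The number of members called in blastocysts was 0 as reported, 2 with the newer dispersion fit and 1 each with DESeq2, with limma-voom, without the prefix term and within D405T; leaving out single libraries gave 0 to 1. In ExE females it was 1 as reported and 2 with the newer fit, and in ExE males 0 and 1. Leaving out ExE libraries gave 2 to 3 called members. From WT oocyte to 2C embryo the count of 1 became 0 without the expression filter and 0 when any WT oocyte was left out, and from 2C embryo to blastocyst the count of 5 became 2 within D707T. The newer fit called 13.4% of all genes in blastocysts. Shares of all genes are not given here for DESeq2, limma-voom, other model terms, single prefixes, the replicate block or left-out libraries. Member counts under those settings therefore have no background to be read against.

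Differences that changed sign belonged to members that were not called, except Igf2 from 2C embryo to blastocyst. Igf2r in 2C embryos was 0.0076 with limma-voom, and Igf2 in blastocysts was -0.0017. Without 2C numbers 42 to 48, the matKO embryos highest in Igf2, Meg3 was -1.31, Igf2 -0.74 and Igf2r 0.77. Within single prefixes, blastocyst Igf2r was -0.24 (D405T) and Grb10 0.64 (D707T). Without the stroma-rich matKO libraries, ExE Rian was 0.18 and Mirg 0.35. In the matKO step from oocyte to 2C embryo, Dlk1 was -0.50, Rian -3.93 (edgeR adjusted p = 0.0286) and H19 -2.17. From 2C embryo to blastocyst, Rian was -0.089 with the newer fit, -0.10 with RLE and -0.94 within D707T, where Igf2 was -0.37. With single libraries left out, Igf2r in oocytes ran from -0.49 to 0.15, Meg3 in 2C embryos from -0.10 to 0.31, Rian in ExE from -0.30 to 0.10, and Mirg from WT oocyte to 2C embryo from -1.75 to 2.39. The causes were not tested.

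Replicate numbers were not treated as pairs in the main fits. Of same-numbered pairs, 1 of 3, 1 of 11, 7 of 13 and 0 of 8 from oocyte to ExE had deviations correlated above 0.1. The highest value in blastocysts was 0.395. Differently numbered pairs were not compared and prefix was not removed, so these values cannot settle whether the numbers pair libraries. With the replicate number as a block 0, 0, 0 and 2 members were called, and ExE H19 was 1.02 (edgeR adjusted p = 0.124). Under the block Igf2r in oocytes was 0.0091, Meg3 in 2C embryos -0.35, and Rian and Mirg in ExE 0.21 and 0.12. Genes of the pathway lists were refitted only with the newer dispersion. Dlk1, Rian, Mirg and Rtl1 held too few counts before ExE to be tested between genotypes.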
